A study of Mus musculus with 556 samples.

Results

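Sim1, Pax6, Pax3, Lhx2, Neurog2, Neurod1, Olig2 and Nkx2-2 are 8 transcription factor genes of the developing nervous system. They were taken by name, as 8 of 20665 protein-coding genes with an autosomal position, and each was placed in the 100 kb bin of mouse genome build mm10 (GRCm38) that holds the midpoint of the gene, with 5 bins on each side. In DamID a bacterial adenine methyltransferase, Dam, fused to lamin B1 marks DNA at the nuclear lamina, whereas Dam alone marks accessible DNA. The marked DNA of single oocytes, zygotes, pronuclei, blastomeres and embryonic stem (ES) cells was sequenced. The deposited value of a bin in a cell is its observed over expected read ratio (OE), so that an OE of 1 is the read number expected of the bin.

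With Dam-lamin B1 there were 56 oocytes, 19 zygotes, 47 blastomeres from the 2-cell stage, 41 from the 8-cell stage and 10 ES cells. With Dam there were 43 oocytes, 46 zygotes, 45 blastomeres from the 2-cell stage and 4 from the 8-cell stage. A further 17 and 23 oocytes were labelled with 20 ng and 50 ng of Dam-lamin B1. All other groups carried Dam-lamin B1. Zygotes given Kdm5b mRNA, which encodes a demethylase of lysine 4 of histone H3, comprised 14 wild-type and 9 mutant whole zygotes, 19 wild-type and 6 mutant paternal pronuclei, and 19 wild-type and 13 mutant maternal pronuclei. The labels do not say what the mutation changes. Whole zygotes also comprised 12 with wild-type and 10 with mutant Kdm4d, 9 treated with aphidicolin, which stops DNA replication, and 11 treated with its solvent DMSO, and 15 paternal and 10 maternal pronuclei were isolated without Kdm5b. Oocytes and isolated pronuclei are labelled C57BL/6, whole embryos C57BL/6 crossed to CAST/EiJ males, and ES cells 129/Sv crossed to CAST/EiJ. In embryos both constructs came from injected mRNA and carried an auxin-dependent degron, with TIR1 and a membrane EGFP injected alongside, and auxin was withheld for 6 to 8 h. The dose of Dam-lamin B1 mRNA was 5 ng/µl in oocytes and zygotes, 10 ng/µl at the 2-cell stage and 20 ng/µl at the 8-cell stage, and that of Dam mRNA was 20 ng/µl in oocytes and zygotes and 40 ng/µl later, so that dose changed with both construct and stage. Kdm5b mRNA was given at 2 µg/µl.

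The reads are of genomic DNA and hold no expression, so the labelled cell types could not be checked against markers. Of 512 cells in the table, 498 belonged to a group, and 14 whose labels contradict each other were left out. Reads per cell recovered from the steps of the OE values ran between 23522 and 1090318, with a median of 71681.5. Each step was taken as 1 read. Among values of up to 20 steps at least 99.7% in each cell were whole multiples within 0.02 reads, and odd multiples made up between 43.7% and 64.7%, so that a coarser step would not leave whole numbers. Were a step worth several reads, every depth, and the depth of the fits at equal reads, would be the same multiple higher. Median depth was 41722 reads in Dam-lamin B1 zygotes and 94113 in Dam zygotes, and 215922 reads in wild-type Kdm5b and 85655 in mutant Kdm5b whole zygotes. Whether these gaps in depth have a part in the results was not tested beyond the fits at equal reads given with them. No mother, litter or day is named in the labels, and therefore the p-values measure the spread between these embryos and nuclei, which may in part be technical.

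The 8 genes act at successive steps of neural development. Pax6, Pax3, Nkx2-2 and Olig2 set out domains between the dorsal and ventral sides of the neural tube, Lhx2 and Sim1 pattern the forebrain and the hypothalamus, and Neurog2 and Neurod1 drive the differentiation of neurons. Genes of this class are silent in the early embryo and are known in ES cells as targets of Polycomb repressors, which were not measured here. Lamina-associated domains (LADs) are long stretches of chromatin at the nuclear edge in which genes are mostly silent.

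The sequences upstream of the genes whose values differed most between the constructs, namely Nkx2-2, Olig2, Lhx2 and Sim1, are printed first, because these genes stand at opposite ends of the difference between the constructs in zygotes. Each run holds the 250 bases before the transcription start, 5′ to 3′ on the strand of the gene, from RefSeq on GRCm38.p6. Capitals mark each CG, a dinucleotide that reads the same on both strands.
Nkx2-2 (chr2:147186403-147186652, minus strand): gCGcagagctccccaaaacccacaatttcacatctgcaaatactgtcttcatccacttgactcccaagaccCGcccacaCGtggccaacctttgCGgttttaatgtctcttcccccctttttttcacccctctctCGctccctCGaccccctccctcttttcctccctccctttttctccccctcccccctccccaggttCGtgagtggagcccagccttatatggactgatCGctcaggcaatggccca
Olig2 (chr16:91225300-91225549, plus strand): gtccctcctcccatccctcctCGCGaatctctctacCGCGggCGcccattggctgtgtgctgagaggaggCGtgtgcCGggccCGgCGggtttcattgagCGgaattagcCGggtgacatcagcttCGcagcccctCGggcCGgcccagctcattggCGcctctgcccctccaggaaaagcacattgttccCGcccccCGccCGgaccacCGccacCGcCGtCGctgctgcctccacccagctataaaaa
Lhx2 (chr2:38339031-38339280, plus strand): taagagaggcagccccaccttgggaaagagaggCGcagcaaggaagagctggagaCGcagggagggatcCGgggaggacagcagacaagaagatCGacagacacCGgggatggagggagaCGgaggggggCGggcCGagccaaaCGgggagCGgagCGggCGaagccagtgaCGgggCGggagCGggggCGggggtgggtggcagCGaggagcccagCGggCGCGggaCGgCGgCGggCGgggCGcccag
Sim1 (chr10:50895401-50895650, plus strand): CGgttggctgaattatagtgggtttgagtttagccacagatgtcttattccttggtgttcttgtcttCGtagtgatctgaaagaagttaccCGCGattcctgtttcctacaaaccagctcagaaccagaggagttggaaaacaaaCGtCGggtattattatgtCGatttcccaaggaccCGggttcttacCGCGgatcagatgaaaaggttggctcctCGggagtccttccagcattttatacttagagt
These runs hold 8 CG in Nkx2-2, 22 in Olig2, 25 in Lhx2 and 11 in Sim1. Lhx2 has another promoter in the table, at chr2:38351058-38351307, with 24 CG and 0 GATC, which is not printed. The median of 31396 mouse promoters of the same length was 6 CG, 92.4% of them held at least 1, and 89.0% held fewer than Lhx2. GATC, the 4-base site that Dam methylates and that also reads the same on both strands, occurred 2 times in the Sim1 and Lhx2 runs, 1 time in Nkx2-2 and 0 times in Olig2, and 41.6% of all promoters held it. Promoters were found for 7 of the 8 genes, 9 in all, of which 5 held a GATC. The OE of a bin covers 100 kb, of which each run is a small part.

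The surroundings of the genes were mixed. The 11-bin windows held between 4 genes (Sim1) and 21 genes (Olig2), with a median of 6.5 protein-coding genes against a median of 6 over all windows. The description of these loci as gene-poor therefore goes against the gene counts, and 87.9% of windows held fewer genes than that of Olig2. By the authors' LAD lists of the inner cell mass and trophectoderm of the blastocyst, the bins of Pax6, Pax3, Neurod1 and Nkx2-2 lay in LADs of both tissues, those of Sim1 and Neurog2 in LADs of the inner cell mass only, and those of Lhx2 and Olig2 in neither. That is 4 bins in both and 2 in neither, against 50.3% and 32% of all bins. Olig2 at chr16:91225550-91228677 shares its bin with its neighbour Olig1, which also acts in the oligodendrocyte lineage, so the pair cannot be told apart. Sim1 at chr10:50894698-50989156 starts in the bin before the one that holds its midpoint.

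In zygotes, Dam-lamin B1 was compared with Dam to ask which loci were marked at the lamina beyond their accessibility. Relative to Dam, the lamin signal was lower at 5 of the 8 gene bins and higher at 1, that of Sim1. The differences, on the scale of log2(OE + 0.5), ran between −1.14 at Nkx2-2 and +0.65 at Sim1. Of the windows, each the mean OE of the gene bin and its 10 neighbours, 5 were lower and that of Sim1 was higher. Tests were made with limma across all bins with Benjamini-Hochberg adjustment, and a bin was called at an adjusted p under 0.05. Over all bins tested, 60.9% were called, 23.9% higher and 36.9% lower, so the share of these 8 genes called is not a departure from the genome, although their median difference of −0.56 lay below the median of all bins, −0.25.

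Among the ventral neural tube genes, Nkx2-2, which specifies ventral interneurons and oligodendrocytes, had a gene-bin OE of 0.407 ± 0.623 in Dam-lamin B1 zygotes against 1.41 ± 1.02 in Dam zygotes (SD, n = 19 and 46). The lowest, median and highest OE were 0, 0 and 2.14 with Dam-lamin B1, and 0, 1.14 and 4.28 with Dam. Of the 19 Dam-lamin B1 zygotes 11 were at 0, against 2 of the 46 Dam zygotes, and the groups overlapped. The log2 difference was −1.14 ± 0.22 (SE, limma adjusted p = 2.86e-06), with 16 of 19 Dam-lamin B1 zygotes below the Dam mean, and 1.53% of all bins had a lower difference.

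Olig2, which specifies motor neurons and oligodendrocytes, had a gene-bin OE of 0.988 ± 1.19 in Dam-lamin B1 zygotes against 1.79 ± 0.966 in Dam zygotes. The lowest, median and highest OE were 0, 0.639 and 4.91 with Dam-lamin B1, and 0, 1.70 and 5.18 with Dam. The highest Dam-lamin B1 zygote was near the highest Dam zygote, and 5 were at 0. Across its window the separation was clearer: the window OE was 0.228, 0.716 and 0.972 at the lowest, median and highest Dam-lamin B1 zygote, against 0.605, 1.33 and 2.81 in Dam zygotes. No Dam-lamin B1 zygote reached a window OE of 1, which 38 of 46 Dam zygotes did. With cells thinned to equal reads, 4 of 19 Dam-lamin B1 and 35 of 46 Dam zygotes reached it. The log2 difference was −0.83 ± 0.21 for the bin (limma adjusted p = 0.000315) and −0.64 ± 0.09 for the window (limma adjusted p = 3.90e-11), and all 19 Dam-lamin B1 zygotes had a window below the Dam mean.

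Pax6, a regulator of the eye, the forebrain and neural tube progenitors, did not pass the test. Its gene-bin OE was 1.41 ± 0.758 in Dam-lamin B1 zygotes and 1.80 ± 1.14 in Dam zygotes, with a log2 difference of −0.24 ± 0.20 (limma adjusted p = 0.293). Its window differed by −0.12 ± 0.10 (limma adjusted p = 0.252). The values ran between 0 and 2.86 with Dam-lamin B1 and between 0.293 and 5.88 with Dam, so both signals were present at this locus in most zygotes. Pax3, a regulator of the dorsal neural tube and neural crest, was lower with Dam-lamin B1. Its gene-bin OE was 0.875 ± 0.843 against 1.43 ± 1.05 with Dam, a log2 difference of −0.50 ± 0.21 (limma adjusted p = 0.0343). The lowest, median and highest values were 0, 0.704 and 2.86 with Dam-lamin B1, and 0, 1.18 and 4.21 with Dam. With each cell centred on its own median the Pax3 bin missed the threshold (−0.40, limma adjusted p = 0.0967).

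Of the forebrain genes, Lhx2, which is needed for the cortex and the eye, was the lower with the lamin fusion. Its gene-bin OE was 0.815 ± 0.550 in Dam-lamin B1 zygotes against 2.07 ± 1.15 in Dam zygotes. The lowest, median and highest OE were 0, 0.873 and 2.22 with Dam-lamin B1, and 0.243, 1.92 and 6.58 with Dam. An OE of at least 1 was reached by 7 of 19 Dam-lamin B1 zygotes and 40 of 46 Dam zygotes. With cells thinned to equal reads these counts were 7 of 19 and 29 of 46. The log2 difference was −0.97 ± 0.20 (limma adjusted p = 1.55e-05), with 18 of 19 Dam-lamin B1 zygotes below the Dam mean.

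Sim1, a regulator of hypothalamic neurons, went the other way. Its gene-bin OE was 1.92 ± 1.38 in Dam-lamin B1 zygotes against 0.967 ± 0.632 in Dam zygotes. The lowest, median and highest OE were 0, 1.52 and 5.33 with Dam-lamin B1, and 0, 0.922 and 2.09 with Dam. Of the 19 Dam-lamin B1 zygotes 17 reached an OE of 1, against 21 of 46 Dam zygotes. With cells thinned to equal reads these counts were 13 of 19 and 17 of 46. The bin differed by +0.65 ± 0.21 (limma adjusted p = 0.00564), and 81.5% of all bins had a lower difference. The window gave +0.83 ± 0.10 (limma adjusted p = 9.23e-13), with window OE values of 0.464, 1.52 and 4.01 at the lowest, median and highest Dam-lamin B1 zygote and 0.101, 0.641 and 1.37 in Dam zygotes. The window mean was thus high with the lamin fusion and low with Dam, with 89.1% and 18.8% of all windows below it. Of the 19 Dam-lamin B1 zygotes 18 had a window above the Dam mean. The Sim1 gene bin itself was near the middle of the genome with Dam, where 50.9% of all bins lay below it.

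Of the genes of neuronal differentiation, Neurog2 had a low lamin level in zygotes and Neurod1 one nearer the middle of the genome, with 13.2% and 43.1% of all bins below them. Neurog2, which commits progenitors to a neuronal fate, had a gene-bin OE of 0.531 ± 0.531 in Dam-lamin B1 zygotes and 0.879 ± 0.670 in Dam zygotes, a difference of −0.44 ± 0.22 that did not pass (limma adjusted p = 0.0719). Neurod1, which acts after the neurogenins, had 0.829 ± 0.726 against 1.45 ± 1.01, a difference of −0.62 ± 0.21 (limma adjusted p = 0.00789). The Neurod1 values were 0, 0.716 and 2.02 with Dam-lamin B1 and 0, 1.20 and 4.30 with Dam at the lowest, median and highest zygote. By Fisher's exact test on the share of zygotes with an OE of at least 1, adjusted over all bins, 5 of the 8 genes were called, without Neurod1, against 40.7% of all bins.

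**Figure D1:**
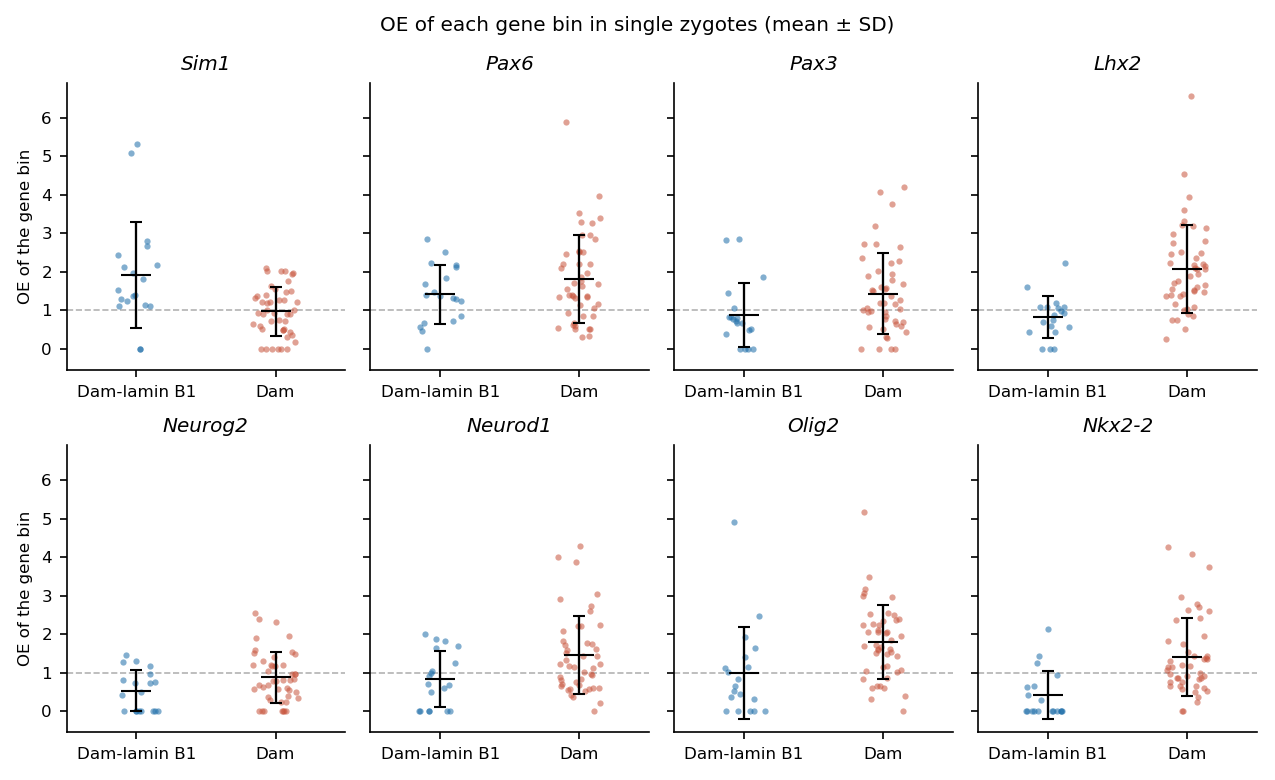
Gene-bin OE of each zygote (points) at the 8 genes, Dam-lamin B1 beside Dam, with bars for the mean ± SD and a dashed line at an OE of 1. The groups overlap at every gene, the Nkx2-2 mean is 0.407 for Dam-lamin B1 against 1.41 for Dam, and Sim1 alone among the genes that passed the test has the higher mean with Dam-lamin B1.

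The calls of Sim1, Pax3 and Neurod1 were lost at equal reads per cell. Each zygote was thinned to the reads of the shallowest one, which gave differences of +0.39 for Sim1 (limma adjusted p = 0.249), −0.40 for Pax3 (limma adjusted p = 0.238) and −0.48 for Neurod1 (limma adjusted p = 0.156). The bins of Lhx2 (−0.85), Olig2 (−0.65) and Nkx2-2 (−0.91) still passed at equal reads, with limma adjusted p = 0.00957, 0.0482 and 0.00675 in that order. Over the genome 9263 of 23577 bins passed at equal reads, 20.6% higher and 18.7% lower. The window of Sim1 also passed at equal reads (+0.86, limma adjusted p = 3.53e-11).

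Over the windows, the lamin signal was lower at Olig2, Nkx2-2 (−0.42 ± 0.09), Lhx2 (−0.40 ± 0.09), Neurog2 (−0.36 ± 0.10) and Pax3 (−0.35 ± 0.09) and higher at Sim1, all with limma adjusted p under the threshold. Neurod1 (−0.14 ± 0.10, limma adjusted p = 0.175) and Pax6 were not called. All windows of the genome were called in 82.2% of cases, 32.9% higher and 49.2% lower, with a median difference of −0.18, against −0.36 over the 8 windows. The shape within each window was tested as the local contrast, the log2 ratio of the gene bin to the mean of its 10 neighbours with 0.5 added to both. It passed for Nkx2-2 (−0.79 ± 0.21, limma adjusted p = 0.00963) and Lhx2 (−0.63 ± 0.20, limma adjusted p = 0.0375), 2 of 8 against 5.39% of all bins (1.32% higher and 4.07% lower). At these genes the construct difference in these zygotes was therefore larger in the gene bin than in its neighbours. For Nkx2-2 the low lamin rank was seen only in these Dam-lamin B1 zygotes, which had no added enzyme or drug. Counted from the lowest bin of the window, the Nkx2-2 bin ranked 2 in them. It ranked between 5 (as in mutant Kdm4d zygotes) and 10 (as in mutant Kdm5b zygotes) in the other zygote and pronucleus groups with Dam-lamin B1. Those groups have no Dam counterpart, so this contrast was not tested in them. With each cell centred on its own median the contrast of Lhx2 missed the threshold (−0.54, limma adjusted p = 0.0928), and at equal reads neither gene passed, with −0.57 for Lhx2 (limma adjusted p = 0.377) and −0.61 for Nkx2-2 (limma adjusted p = 0.336).

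The profiles along the windows show where this difference lay. The Lhx2 bin had a mean OE of 0.815 between neighbours of 1.01 and 0.463 in Dam-lamin B1 zygotes, whereas in Dam zygotes it had 2.07 between neighbours of 0.817 and 1.12. The Nkx2-2 bin had 0.407 between 0.688 and 0.345 with Dam-lamin B1, whereas the Dam mean stood above its neighbours, at 1.41 between 0.544 and 0.876. At Sim1 the lamin signal was highest in the bin before the gene bin, the one that holds its start, at 2.74, where Dam gave 0.845. At Pax6 the constructs crossed within the window: 200 kb before the gene bin the mean OE was 0.359 with Dam-lamin B1 against 1.35 with Dam, and 300 kb after it 1.35 with Dam-lamin B1 against 0.616 with Dam. Positions are given along the plus strand of the chromosome. The gene bin was the highest of its window at 2 of 8 genes in Dam-lamin B1 zygotes (Pax6 and Olig2), against 8.23% of all bins. In Dam zygotes it was so at 6 of 8 genes (Sim1, Pax6, Lhx2, Neurod1, Olig2 and Nkx2-2), against 7.74% of all bins and 9.77% of bins with a protein-coding gene midpoint. At the 2-cell stage it was so at 1 of 8 genes with Dam-lamin B1 and, with Dam, at 4 of 8 (Pax6, Lhx2, Neurod1 and Nkx2-2), against 8.11% of all bins for each construct. In oocytes it was so at 2 of 8 genes with Dam-lamin B1, against 8.47% of all bins, and at 1 of 8 with Dam, against 8.15%. At the 8-cell stage it was so at 2 of 8 genes with Dam-lamin B1 (Lhx2 and Olig2), against 8.11% of all bins, and at 1 of 8 with Dam (Pax6), against 8.01%. Of 57 windows of other neural transcription factors, which include that of Olig1 in the bin of Olig2, 13 (22.8%) had the gene bin highest in Dam zygotes and 17 (29.8%) in Dam cells of 2-cell embryos.

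**Figure D2:**
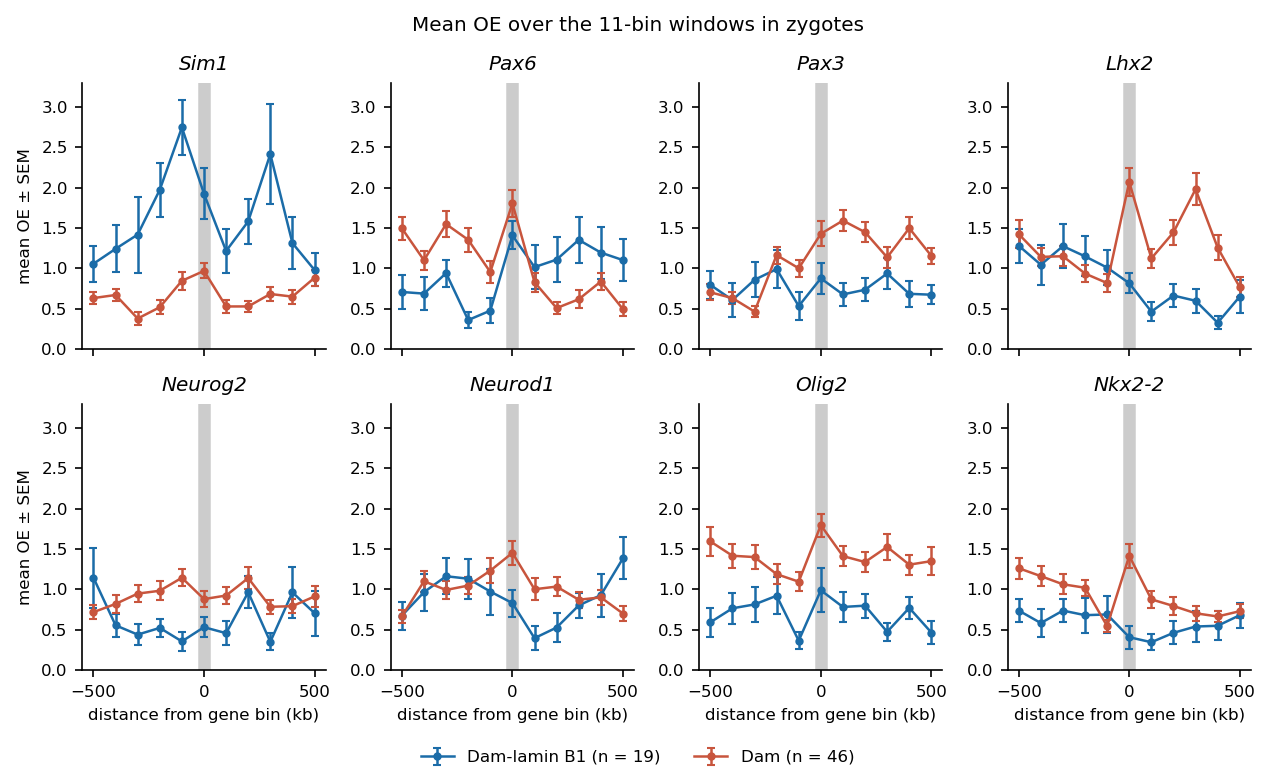
Mean OE (vertical axis) by distance from the gene bin (horizontal axis) over the 11 bins of each window in Dam-lamin B1 and Dam zygotes, with SEM bars and the gene bin shaded. Dam-lamin B1 values are 0.815 in the bin of Lhx2 and 0.407 in that of Nkx2-2, where Dam values peak at 2.07 and 1.41, and the Sim1 window is higher with Dam-lamin B1 throughout.

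A list of 60 other neural transcription factors, in 58 bins, moved in the same sense. Their gene bins were called lower in 35 and higher in 2 of 58 cases, against 36.9% and 23.9% of all bins. Their median difference was −0.58, close to the −0.56 of the 8 genes. Over windows 43 were lower and 9 higher, against 49.2% and 32.9% of all windows, with a median of −0.48. Olig1 of this list lies in the bin of Olig2 and Nkx2-4 in the bin next to Nkx2-2. Without both, 34 gene bins were lower and 2 higher of 56, with a median of −0.58, and 41 windows were lower and 9 higher, with a median of −0.47. The largest falls were at Lhx6 (−1.08), a regulator of cortical interneurons, En2 (−1.04), a gene of the midbrain and hindbrain, and Eomes (−0.98), which marks cortical intermediate progenitors. At the upper end stood Neurod4 (+1.08), a relative of Neurod1, Isl1 (+0.67), a motor neuron gene, and Tbr1, a gene of deep cortical neurons, whose +0.42 did not pass (limma adjusted p = 0.0732). The local contrast was lower in 4 and higher in 0 of these 58 bins, against 4.07% and 1.32% of all bins. The 8 genes are thus not set apart from other genes of their class by these values, and no test of such a difference was made.

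Over development, the Dam-lamin B1 signal followed a different order of stages at each gene. The labels do not tie cells to embryos and mRNA dose changed with stage, so each stage counts as 1 sample per construct and the stages are described with the spread between cells and without a test. The mean OE over the 8 gene bins was 0.915 ± 0.335 in oocytes, 0.972 ± 0.270 in zygotes, 1.28 ± 0.444 at the 2-cell stage, 1.52 ± 0.464 at the 8-cell stage and 0.924 ± 0.251 in ES cells (SD between cells). With Dam it was 1.06 ± 0.199, 1.48 ± 0.455, 1.40 ± 0.316 and 1.23 ± 0.209 in oocytes, zygotes, 2-cell and 8-cell embryos. The lamin mean was thus higher at the 8-cell stage than at any other stage measured, and the Dam mean was highest in zygotes. The ES mean lay below that of the 8-cell stage by more than the larger SD, and the other neighbouring stages did not differ by that much with either construct.

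The share of the 8 bins with an OE of at least 1 was likewise highest at the 8-cell stage. It was 38.2% in oocytes, 42.1% in zygotes, 48.4% at the 2-cell stage, 61.3% at the 8-cell stage and 37.5% in ES cells with Dam-lamin B1. Thinned to 23522 reads per cell, the shares were 30.8%, 44.1%, 42.0%, 55.8% and 41.3%, so the 8-cell stage remained at the top, oocytes in place of ES cells were lowest, and zygotes lay above 2-cell embryos. The same share over all bins is not given here, so these shares are not set against the genome. The median of the 8 gene means at the 8-cell stage was 1.69 against 0.896 for all bins and 0.925 for the other neural transcription factors, with 7 of 8 genes above the median of all bins. At the 2-cell stage it was 1.36 against 0.862 for all bins and 1.05 for the other neural factors.

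The lamin level of Sim1 differed widely between stages. In oocytes its gene-bin OE was 0.286 ± 0.443, with 32 of 56 oocytes at 0 and a highest value of 2.25. In zygotes it was 1.92 ± 1.38, at the 2-cell stage 0.874 ± 0.983, at the 8-cell stage 1.70 ± 0.993 and in ES cells 2.02 ± 2.35. The ES mean rests in part on replicate 13, which had 32801 reads, an OE of 8.48 and no other ES cell near it; without it the mean was 1.30 ± 0.642 (n = 9). The zygote mean exceeded that of oocytes by 1.64, more than either SD, and its window mean exceeded it as well, at 1.62 ± 0.765 against 0.503 ± 0.324. The 2-cell window, at 0.710 ± 0.325, lay below that of zygotes by more than the larger SD. With Dam the Sim1 bin stayed between 0.398 ± 0.795 at the 8-cell stage and 0.967 ± 0.632 in zygotes. Read in the bin of its start site, the 8-cell lamin mean of Sim1 was 0.62 and the oocyte Dam mean 1.01, so these levels depend on which of the neighbouring bins is taken.

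Of the genes in LADs of both blastocyst tissues, Neurod1 and Nkx2-2 had their highest gene-bin means with Dam-lamin B1 at the 2-cell stage. Neurod1 had 1.10 ± 0.749 in oocytes, 0.829 ± 0.726 in zygotes, 2.47 ± 1.59 at the 2-cell stage, 2.00 ± 1.54 at the 8-cell stage and 1.26 ± 1.05 in ES cells. The step between zygotes and the 2-cell stage was larger than either SD. An OE of 1 was reached at Neurod1 by 38 of 47 cells of 2-cell embryos, and by 31 of 47 with cells thinned to equal reads. Nkx2-2 had 1.21 ± 0.873, 0.407 ± 0.623, 2.00 ± 1.60, 1.68 ± 1.37 and 0.993 ± 0.938 at the same 5 stages. Its window took another course, with 0.512 ± 0.286, 0.582 ± 0.318, 1.21 ± 0.549, 1.67 ± 0.569 and 1.25 ± 0.619, and was highest at the 8-cell stage. The step of the window between zygotes and the 2-cell stage exceeded the larger SD, which that of the Nkx2-2 bin did not. At the 8-cell stage 39 of 41 cells had an Nkx2-2 window OE of at least 1, against 1 of 19 zygotes.

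Pax3 and Pax6 were highest at the 8-cell stage. Pax3 had a lamin OE of 0.912 ± 0.986 in oocytes, 0.875 ± 0.843 in zygotes, 1.50 ± 1.55 at the 2-cell stage, 1.93 ± 1.60 at the 8-cell stage and 1.00 ± 0.512 in ES cells. No neighbouring stages of Pax3 differed by more than the larger SD. Pax6 had 0.747 ± 0.787, 1.41 ± 0.758, 1.26 ± 1.16, 1.76 ± 1.02 and 0.722 ± 0.456. ES cells lay 1.04 below the 8-cell stage at Pax6, beyond the larger SD. An OE of 1 was reached at Pax6 by 2 of 10 ES cells against 33 of 41 cells of 8-cell embryos. With cells thinned to equal reads these counts were 2 of 10 and 21 of 41.

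Pax6 was also high with Dam. Its Dam OE was 1.18 ± 0.516 in oocytes, 1.80 ± 1.14 in zygotes, 2.10 ± 1.24 at the 2-cell stage and 3.41 ± 1.81 at the 8-cell stage. The 4 cells of 8-cell embryos had 2.00, 3.77, 5.82 and 2.03, all above the value expected of the bin. Pax6 was thus the highest of the 8 genes with Dam at the 2-cell and 8-cell stages, and Lhx2 (1.37 ± 0.433, 2.07 ± 1.15, 1.75 ± 1.03 and 1.65 ± 0.595 over the 4 stages) lay above it in oocytes and zygotes. Olig2 with Dam had 1.40 ± 0.604, 1.79 ± 0.966, 1.79 ± 1.04 and 0.602 ± 0.553, and its fall of 1.19 at the 8-cell stage exceeded the larger SD. The 4 cells there had 0.458, 0.618, 0 and 1.33.

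Olig2 and Neurog2 had the lowest lamin gene-bin means of the 8 genes at the 2-cell stage. The Olig2 window was 1.24 ± 0.458 in oocytes, 0.703 ± 0.201 in zygotes, 0.486 ± 0.291 at the 2-cell stage, 0.516 ± 0.270 at the 8-cell stage and 0.502 ± 0.265 in ES cells. The oocyte level lay above that of zygotes by more than the larger SD. A window OE of at least 1 was found in 36 of 56 oocytes but 0 of 19 zygotes. With cells thinned to equal reads it was found in 32 of 56 oocytes and 4 of 19 zygotes. The Dam values of the Olig2 window were 1.26 ± 0.193 for oocytes, 1.40 ± 0.457 for zygotes, 1.46 ± 0.551 for the 2-cell stage and 1.75 ± 0.277 for the 8-cell stage. At the 8-cell stage all 4 Dam cells had a window OE of at least 1, while the Olig2 gene bin, at 0.602, was the lowest of its window.

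The Neurog2 bin had a lamin OE of 0.406 ± 0.787 in oocytes, 0.531 ± 0.531 in zygotes, 0.158 ± 0.617 at the 2-cell stage, 1.07 ± 1.03 at the 8-cell stage and 0.300 ± 0.368 in ES cells. At the 2-cell stage 40 of 47 cells were at 0 and 1 reached an OE of 1, at 4.05. In ES cells 0 of 10 reached it, which allows a share of up to 30.8% (exact Clopper-Pearson 95% interval, counting error only). These counts depend on depth: with cells thinned to equal reads, 3 of 10 ES cells and 3 of 47 cells of 2-cell embryos reached it. With Dam, 21 of 45 cells of 2-cell embryos reached it. The Lhx2 bin had 0.945 ± 0.827, 0.815 ± 0.550, 1.47 ± 1.19, 1.18 ± 0.973 and 0.578 ± 0.511 with Dam-lamin B1 over the 5 stages, and no neighbouring stages differed by more than the larger SD.

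**Figure D3:**
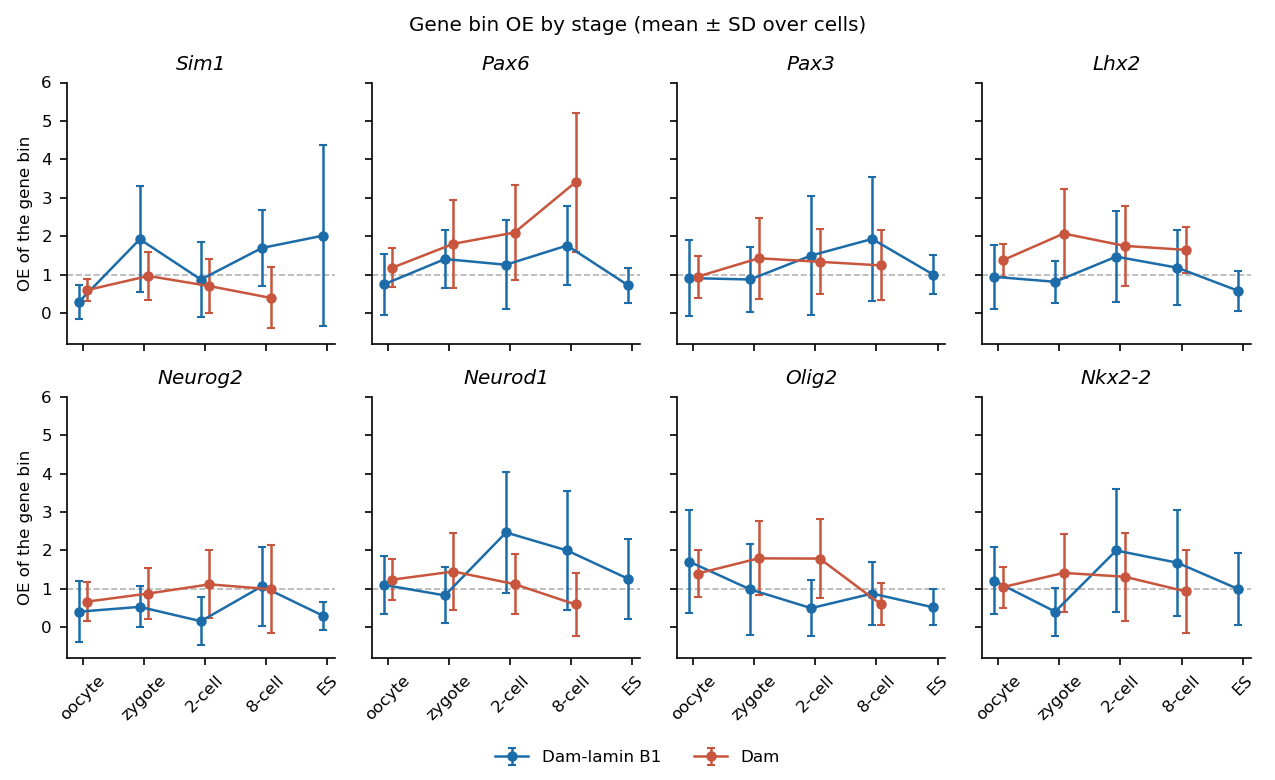
Mean OE of the 8 gene bins by stage with Dam-lamin B1 and Dam, error bars showing the SD between cells. Lamin values of Neurod1 and Nkx2-2 peak at the 2-cell stage at 2.47 and 2.00, Neurog2 is lowest there at 0.158, and the Dam value of Pax6 reaches 3.41 at the 8-cell stage with 4 cells.

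Counted over all genes, 3 of 32 steps between neighbouring stages exceeded the larger SD in gene bins with Dam-lamin B1 (Sim1 in zygotes, Neurod1 at the 2-cell stage and Pax6 in ES cells) and 1 of 24 with Dam (Olig2 at the 8-cell stage). Over windows it was 5 of 32 with Dam-lamin B1, namely Sim1 and Olig2 in zygotes, Sim1 and Nkx2-2 at the 2-cell stage and Neurog2 at the 8-cell stage, and 1 of 24 with Dam. All other steps were smaller than the larger SD between single cells, which does not show that these levels were the same. The Nkx2-2 bin with Dam-lamin B1, for example, rose by 1.59 between zygotes and the 2-cell stage, against an SD of 1.60. The share of all bins or windows that exceeds the larger SD was not counted, so these counts are not set against the genome.

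Wild-type Kdm5b was compared with mutant Kdm5b to ask whether the enzyme changes contact with the lamina. None of the 8 gene bins was called in whole zygotes, paternal pronuclei or maternal pronuclei, where limma also called 0% of all bins. At an unadjusted p under 0.05 the counts were 1 (Lhx2), 0 and 0 of 8, against 16.8%, 14.6% and 9.22% of all bins, and by adjusted Fisher's exact test 0 in each, against 0% of all bins. The differences ran between −0.33 and +0.75 in whole zygotes, −0.15 and +0.47 in paternal pronuclei, and −0.46 and +0.62 in maternal pronuclei. The local contrast was called at 0 of 8 genes in the 3 comparisons, against 0%, 0.00839% and 0% of all bins, and 0, 1 (Neurog2) and 1 (Neurod1) were under 0.05 without adjustment, against 8.13%, 6.38% and 7.63% of all bins.

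Among windows, that of Olig2 was the only 1 of the 8 called, in paternal pronuclei, where 32.8% of all windows were called. In paternal pronuclei its OE was 0.983 ± 0.273 with wild-type Kdm5b against 0.589 ± 0.201 with mutant Kdm5b (SD, n = 19 and 6). The wild-type nuclei had 0.558, 0.990 and 1.72 at the lowest, median and highest, and the mutant nuclei 0.361, 0.585 and 0.879, so that the mutant group lay in the lower range of the wild-type group and overlapped it. Median depth was 104824 reads in wild-type and 103726 in mutant nuclei. The log2 difference was +0.44 ± 0.13 (limma adjusted p = 0.0104), with 18 of 19 wild-type nuclei above the mutant mean. It was the 1 window of 8 called there, against 32.8% of all windows (17.1% higher and 15.7% lower), and Fisher's exact test on nuclei with an OE of at least 1 called 0, against 0% of all windows. With the replicate number as a block the Olig2 difference was +0.56 and missed the threshold (limma adjusted p = 0.166). Over all paternal windows, higher calls were 8.81% at equal reads and 6.57% with each cell centred on its own median.

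In whole zygotes the Olig2 window had 0.908 ± 0.238 with wild-type against 0.559 ± 0.295 with mutant Kdm5b (SD, n = 14 and 9), at 0.504, 0.924 and 1.27 against 0.0839, 0.494 and 1.03 for the lowest, median and highest. The difference of +0.44 ± 0.15 did not pass (limma adjusted p = 0.0611). In maternal pronuclei it had 0.924 ± 0.365 against 0.624 ± 0.252, a difference of +0.34 ± 0.14 (limma adjusted p = 0.239), with 15 of 19 wild-type nuclei above the mutant mean. The sizes were thus close in the 3 settings. The paternal less the maternal difference was +0.11 ± 0.19 (limma adjusted p = 0.937), so a difference between pronuclei was not detected, and 0 of 8 genes were called for it in bins, windows or local contrast, against 0.0042%, 0% and 0% of all bins. At an unadjusted p under 0.05 these counts were 0, 0 and 1, against 6.3%, 8.71% and 5.14% of all bins (Fisher's exact test was not run on this difference). The fit took all nuclei as independent, and whether paternal and maternal nuclei came from the same zygotes was not checked.

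The other windows were not called. In whole zygotes 0 of 8 passed, against 5.17% of all windows (4.44% higher and 0.737% lower), with 2 under 0.05 without adjustment, against 31.8% of all windows, and 0 by Fisher's exact test, against 0%. They were Olig2 and Lhx2, and Lhx2 had 1.06 ± 0.371 in wild-type against 0.666 ± 0.361 in mutant Kdm5b zygotes (+0.44 ± 0.17, limma adjusted p = 0.0756). In maternal pronuclei 0 of 8 passed, against 0.196% of all windows (0.162% higher and 0.0333% lower), with 1 (Olig2) under 0.05 without adjustment, against 15.5% of all windows, and 0 by Fisher's exact test, against 0%. Sim1 there had 1.09 ± 0.609 with wild-type against 1.58 ± 0.788 with mutant Kdm5b, a difference of −0.39 ± 0.20 (limma adjusted p = 0.337). Its signal lay below that of the mutant in all 3 comparisons without passing the test in any. Without adjustment 1 window, Olig2, was under 0.05 in paternal pronuclei, against 46% of all windows.

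**Figure D4:**
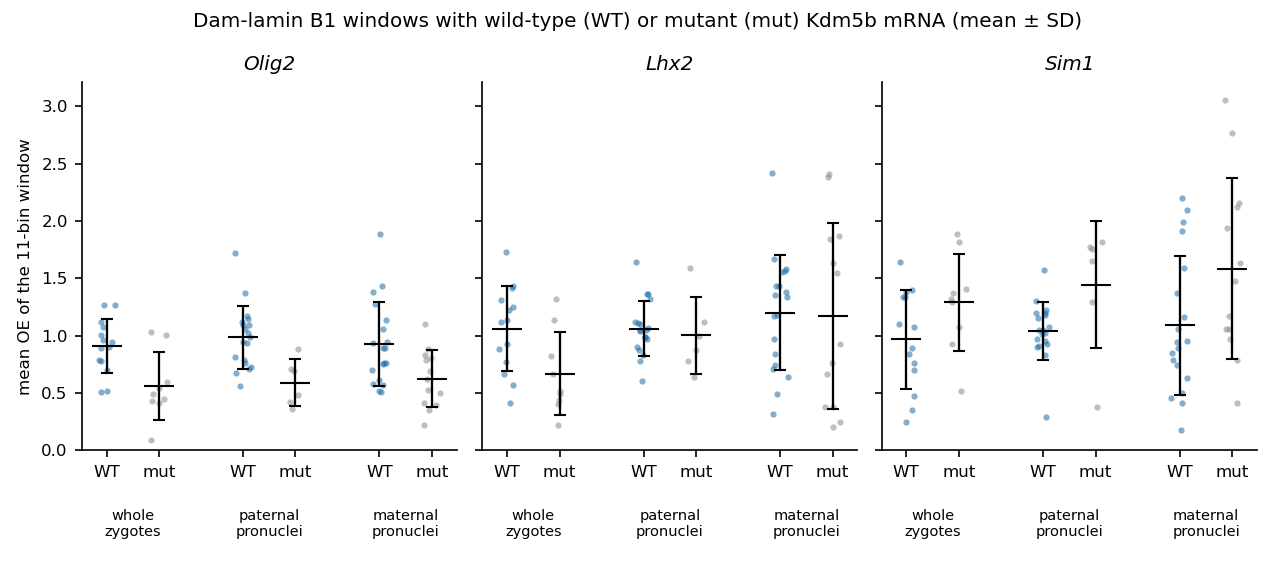
Mean OE of the 11-bin windows of Olig2, Lhx2 and Sim1 in each whole zygote or pronucleus (points) with wild-type beside mutant Kdm5b, bars showing mean ± SD. Olig2 means are 0.908 and 0.559 in whole zygotes, 0.983 and 0.589 in paternal and 0.924 and 0.624 in maternal pronuclei, wild-type before mutant, and the groups overlap in each panel.

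The median window difference of the 8 genes was −0.003 in whole zygotes, −0.08 in paternal and +0.13 in maternal pronuclei, against +0.09, +0.08 and +0.09 over all windows. The other neural transcription factors had medians of +0.32, +0.25 and +0.18. Of their 58 windows 2 were called higher in whole zygotes, against 4.44% of all windows. In paternal pronuclei 19 were higher and 3 lower, against 17.1% and 15.7% of all windows. In maternal pronuclei 1 was higher, against 0.162% of all windows. The median of all gene bins was itself shifted by +0.15 in whole zygotes and +0.12 in maternal pronuclei, so single-bin differences there are read against those shifts.

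Across the 13 zygote and pronucleus groups with Dam-lamin B1, the plain zygotes were not typical at Nkx2-2 and Sim1. The mean OE of the Nkx2-2 bin ran between 0.407 in plain zygotes, the lowest group, and 1.61 in paternal pronuclei with mutant Kdm5b, with a median of 0.927. The Sim1 bin ran between 0.746 in maternal pronuclei without Kdm5b and 1.92 in plain zygotes, the highest group, with a median of 1.10. The construct comparison above uses the plain zygotes, since these and the Dam zygotes have no added enzyme or drug. The Lhx2 bin ran between 0.491 in mutant Kdm5b zygotes and 1.50 in DMSO zygotes, and that of Neurog2 between 0.240 in DMSO zygotes and 1.08 in paternal pronuclei with wild-type Kdm5b. In oocytes the Sim1 bin had 0.286 ± 0.443 with 5 ng/µl, 0.570 ± 0.466 in those labelled 20 ng and 0.966 ± 0.495 in those labelled 50 ng, amounts the labels give without a volume, while Nkx2-2 had 1.21 ± 0.873, 1.09 ± 0.638 and 1.24 ± 0.639.

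**Figure D5:**
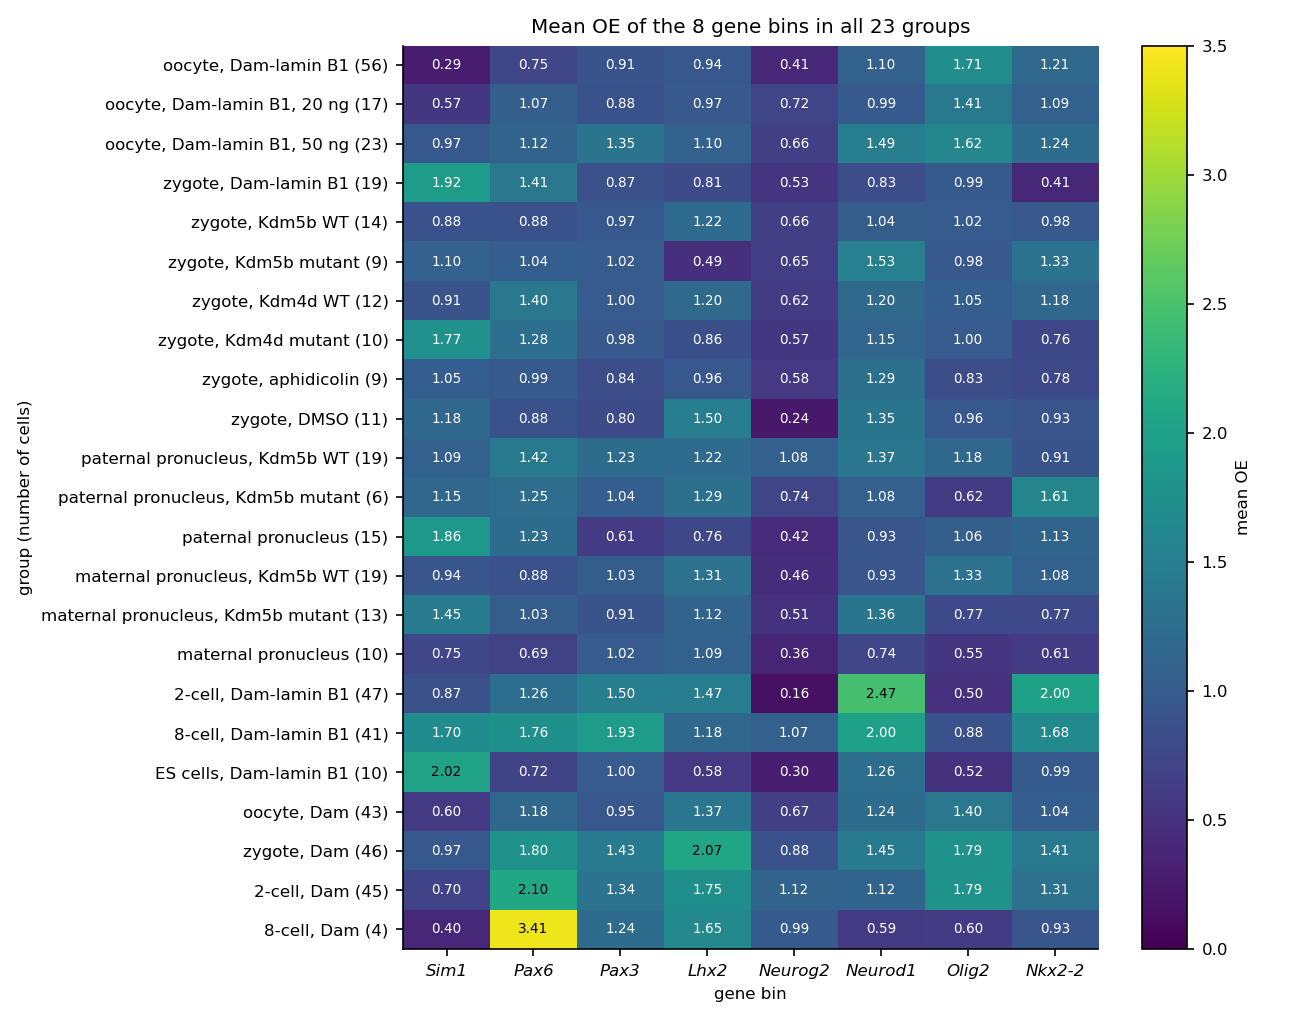
Heat map of the mean gene-bin OE of the 8 genes (across) in all 23 groups of single cells (down, with the number of cells), Dam-lamin B1 groups above Dam groups, on a colour scale of mean OE. Sim1 ranges between 0.286 in oocytes and 2.02 in ES cells with Dam-lamin B1, the latter being 1.30 without replicate 13. Pax6 reaches 3.41 in cells of 8-cell embryos with Dam.

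Over the means of these 23 groups, which share depth and construct within a group, Neurod1 and Nkx2-2 had the most alike courses of the 8 genes (Pearson r = 0.68) and Sim1 and Lhx2 the least alike (r = −0.49). Among bins of other protein-coding genes, that of Plscr4 on chromosome 9 was most like Sim1 (r = 0.89), the granzyme bin of Gzmd, Gzme and Gzmg with Ctsg on chromosome 14 most like Pax6 (r = 0.94), Gadl1 most like Pax3 (r = 0.77) and Clmp most like Lhx2 (r = 0.84). Arrb1 was most like Neurog2 (r = 0.84), Adam12 most like Neurod1 (r = 0.81), the bin of Cops9, Otos and olfactory receptor genes most like Olig2 (r = 0.88) and Igsf11 most like Nkx2-2 (r = 0.81). The runners-up were Rgs13, the bin of Aipl1, Pimreg and Pitpnm3, Lrig3, the Sox10 bin, Man2b2, the bin of Sdr16c5 and Sdr16c6, a kallikrein bin with Klk1b21, and a keratin bin with Krt12, in the same order of genes, with r between 0.77 and 0.90. For each gene these were the highest r among between 10598 and 10635 bins compared over 23 group means. How high the best r would be for other bins was not measured. These are descriptions of 100 kb bins over group means.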

How the data were processed

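The deposited table gives, for each cell and 100 kb autosomal bin, the ratio of observed to expected reads made by the authors; the sources used here do not say how the expected reads were computed. Reads were trimmed with cutadapt and aligned with BWA 0.7.12 to mm10, per the submitters' processing notes. Of 24639 bins, 24022 hold values. The deposited LAD lists of blastocyst tissues were overlapped with bins at a minimum of 50% of the bin.

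Gene positions and promoters came from RefSeq tables. Values were analysed as log2(OE + 0.5). limma 3.58.1 in R 4.3.3 (empirical Bayes with a mean-variance trend) was fitted on all bins with an OE above 0 in at least 25% of the cells compared, using only the groups compared. Reads per cell were recovered from the whole-number steps of OE within a tolerance of 0.02 reads. Scripts were tested on simulated data. Intervals cover counting error only, and the depth above is an estimate.

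All 8 genes are named. So are the genes sharing their bins, the 2 most alike gene bins at least 5 Mb away, and the 3 highest and 3 lowest of the other neural factors in the zygote comparison. The members and lists were chosen with earlier results of these data known. Alternatives were other pseudocounts, no low-value filter, equal reads, robust fits, centred cells, a replicate block, Fisher's exact test, the start-site bin, other window widths, and, chosen after seeing the data, cells of at least 50000 reads. Population samples were not used here.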

Additional observations from a re-analysis of the deposited data

Results flagged for a closer look

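Of 64 sets of values in groups of 4 to 10 cells examined, 7 had 1 cell far from the others. The critical value used picks about 1 in 20 groups of independent, normally distributed values by chance; these sets share cells and hold many zeros, and their own chance rate was not measured. The causes were not tested.

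Sim1 was involved in 4 of them. With Dam at the 8-cell stage, replicate 5 had a gene-bin OE of 1.59 and the other 3 cells were at 0. In ES cells, replicate 13 had a Sim1 gene-bin OE of 8.48 (next highest 2.19) and a window OE of 3.33 (next highest 1.82). Without that cell the window mean of ES cells was 1.15 in place of 1.37. In paternal pronuclei with mutant Kdm5b, replicate 3 had a Sim1 window of 0.378, below the next lowest at 1.29, and the mean was 1.66 without it and 1.44 with it.

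The other 3 were at the neuronal differentiation genes with mutant Kdm5b. Whole zygote replicate 5, with 70581 reads, had 2.37 at Neurog2 (next highest 1.02) and 5.29 at Neurod1 (next highest 2.03), and without it the group means were 0.435 at Neurog2 and 1.06 at Neurod1. Paternal pronucleus replicate 1, with 42615 reads, had 0 at Neurod1, below the next lowest at 1.06.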

How the results depend on the processing

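In zygotes, Dam-lamin B1 against Dam, the count of gene bins called was 3 of 8 rather than 6 at equal reads, with the replicate block and in cells of at least 50000 reads (6 of 19 Dam-lamin B1 and 39 of 46 Dam zygotes). Lhx2, Olig2 and Nkx2-2 were called under every alternative run. At equal reads 9263 of 23577 bins were called over the genome, so 3 of 8 is not a departure from it. The local contrast count was 0 rather than 2 at equal reads, with the block and in cells of at least 50000 reads, and 1 when centred and with 3 flanking bins. Over the genome the contrast called 159 of 23577 bins at equal reads and 1023 of 23805 when centred. For the block, the deeper cells and other flank widths the shares over the genome are not given here. The window count with the block was 6. With the block all Kdm5b counts were 0, including the paternal windows. Replicate numbers did not pair the cells of the groups compared. The median correlation of same-numbered cells was −0.004, 0.034, 0.0086 and 0.0028 in the zygote, whole-zygote Kdm5b, paternal and maternal comparisons. In these, 1 of 19, 1 of 9, 2 of 6 and 1 of 13 correlated best with their own number. Paternal and maternal nuclei of the same number were not checked for pairing.

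With 10 flanking bins, windows called were 1 rather than 0 in whole Kdm5b zygotes (Olig2, +0.43, limma adjusted p = 0.0427) and 3 rather than 1 in paternal pronuclei. Fisher's exact test gave 0 there. The shares of all windows called at this width are not given, so these counts are not set against the genome. Reversed signs were 0.051 for the Pax6 window in zygotes of at least 50000 reads and −0.0497 for the paternal less maternal Olig2 window with 10 flanking bins. Counting an OE of at least 2, the lamin shares were 12.5%, 12.5%, 22.1%, 31.1% and 7.5% in oocytes, zygotes, 2-cell, 8-cell and ES cells. Without each Dam cell of 8-cell embryos in turn, the mean over the 8 bins was between 1.12 and 1.27. Of 268 differences at single genes, 239 kept direction and side of the threshold, 25 fell below it, 2 passed it and 2 reversed. Over the genome, higher calls were 39.3% of calls in zygote gene bins, 52.5% at equal reads and 47.4% centred; 24.5% in local contrast and 52.6% centred; 52.1% in paternal windows and 25.0% centred. The 1242 windows called in whole Kdm5b zygotes were 0 at equal reads and centred. Depth limits what single bins can show, since many values in shallow cells are 0.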

Other observations

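The Neurog2 window differed between parental pronuclei in level, given here without a test. In paternal pronuclei its mean OE was 1.05 with wild-type Kdm5b (0.429 to 1.58 in 19 nuclei), 1.28 with mutant Kdm5b (1.18 to 1.38 in 6) and 0.812 without Kdm5b (0.251 to 1.43 in 15). In maternal pronuclei it was 0.408 with wild-type Kdm5b (0 to 0.955 in 19), 0.343 with mutant Kdm5b (0.0298 to 0.645 in 13) and 0.435 without Kdm5b (0.205 to 1.15 in 10). With mutant Kdm5b the paternal and maternal nuclei did not overlap. The share of all windows without overlap between these groups is not given here, so this cannot be called particular to Neurog2.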
